A study of Homo sapiens with 6 samples.

Results

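The genes described here are the transcription factor genes of AP-1 and of the early response to growth signals, FOS, FOSB, FOSL1, FOSL2, JUN, JUNB, JUND, ATF3, EGR1 and MYC, 10 of the 18377 genes measured. They were chosen by name, each was read by 1 probe set, and all 10 entered the comparison with no filter on level. The cells were of the line MDA-MB-231, established from a human breast cancer and known as mesenchymal and triple-negative. One group of 3 cultures carried pTargeT, a mammalian expression vector, with GHSROS inserted, and the other group of 3 carried pTargeT with no insert. GHSROS is a noncoding transcript from the antisense strand of GHSR, which encodes the ghrelin receptor. All 6 cultures grew in the same serum-containing medium, and no group lacked the vector. Whether transfection was transient or stable, and whether cells were cloned, is not stated in the labels. RNA was read on Affymetrix Human Gene 1.0 arrays, and values are log2 levels, so a difference of 1 is a doubling. A level is compared only with the level of the same gene on another array, since probe sets differ in brightness.

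AP-1 is a dimer that binds DNA through a basic region and holds together by a leucine zipper. JUN proteins pair with themselves or with FOS proteins, FOS proteins need a JUN partner, and ATF3 is a related factor that pairs with JUN proteins. FOS, FOSB, JUNB, EGR1 and others are immediate early genes: serum or MAP kinase signalling switches their transcription on within minutes, with no new protein needed, through serum response factor at CArG boxes and CREB or ATF proteins at cAMP response elements. FOSL1 is a longer-lived AP-1 subunit that is often abundant in mesenchymal breast cancer lines. MYC acts further along, driving ribosome production and growth with its partner MAX.

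The promoters of FOS, FOSB, JUNB, JUND and JUN are shown because the first 4 genes were highest, and JUN lowest, on the same arrays. Each sequence is from RefSeq on GRCh38.p14 and runs 5′ to 3′ on the gene's strand, from 250 bases before the annotated start to 50 after it. FOS lies at chr14:75278578-75278877 (plus strand), FOSB at chr19:45467746-45468045 (plus), JUNB at chr19:12791236-12791535 (plus), JUND at chr19:18281573-18281872 (minus) and JUN at chr1:58783998-58784297 (minus). Capitals mark TATAAA in FOS, FOSB and JUNB, and TGACGTCA, the cAMP response element, in JUND.
FOS: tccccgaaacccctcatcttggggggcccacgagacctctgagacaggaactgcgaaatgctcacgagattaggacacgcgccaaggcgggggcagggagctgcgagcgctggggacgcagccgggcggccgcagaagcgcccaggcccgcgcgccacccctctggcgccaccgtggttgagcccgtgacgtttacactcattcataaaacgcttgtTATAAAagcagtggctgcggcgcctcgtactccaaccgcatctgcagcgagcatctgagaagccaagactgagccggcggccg
FOSB: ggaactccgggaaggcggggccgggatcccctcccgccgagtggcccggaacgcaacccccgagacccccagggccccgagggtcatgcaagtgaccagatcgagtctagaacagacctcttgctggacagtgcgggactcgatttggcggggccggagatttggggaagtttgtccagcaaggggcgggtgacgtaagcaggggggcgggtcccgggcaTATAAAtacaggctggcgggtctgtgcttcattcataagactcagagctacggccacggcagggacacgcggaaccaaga
JUNB: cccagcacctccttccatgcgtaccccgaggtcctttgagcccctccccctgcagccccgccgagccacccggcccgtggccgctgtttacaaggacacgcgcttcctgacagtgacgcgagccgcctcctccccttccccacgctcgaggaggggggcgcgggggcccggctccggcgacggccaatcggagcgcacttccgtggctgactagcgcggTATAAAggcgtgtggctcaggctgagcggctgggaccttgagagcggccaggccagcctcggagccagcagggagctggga
JUND: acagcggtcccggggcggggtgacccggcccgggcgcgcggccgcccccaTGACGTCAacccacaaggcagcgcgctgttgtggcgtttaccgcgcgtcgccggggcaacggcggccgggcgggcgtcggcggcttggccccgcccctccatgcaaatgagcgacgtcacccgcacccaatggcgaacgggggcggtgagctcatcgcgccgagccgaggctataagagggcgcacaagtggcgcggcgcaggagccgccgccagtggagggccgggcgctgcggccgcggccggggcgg
JUN: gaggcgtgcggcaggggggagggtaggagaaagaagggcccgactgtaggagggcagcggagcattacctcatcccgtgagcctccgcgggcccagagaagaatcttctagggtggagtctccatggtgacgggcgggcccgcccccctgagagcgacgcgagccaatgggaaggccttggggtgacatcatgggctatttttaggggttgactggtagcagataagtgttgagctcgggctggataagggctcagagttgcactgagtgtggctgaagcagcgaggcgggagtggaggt

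In FOS, FOSB and JUNB the TATAAA began 33, 30 and 31 bases before the start. Of 35116 RefSeq promoters, 2.17% held TATAAA on the gene's strand with its first base 25 to 35 bases before the start, and 11.5% held it anywhere on either strand. JUND held TGACGTCA, a sequence that reads the same on both strands, from 200 bases before the start, as did 1.85% of promoters somewhere in the window. The JUN window held none of the 6 motifs searched. EGR1 held a pair of CArG boxes, CCATATTAGG from 105 bases and CCATATATGG from 83 bases before the start, and 1.29% of all promoters held a CArG box. FOSL2 held the AP-1 site TGACTCA, also searched as TGAGTCA, just after its start (4.95% of promoters). The E-box CACGTG, where MYC and MAX bind, was in none of the 8 genes with an entry and in 7.26% of promoters, and the EGR site GCGTGGGCG, searched on both strands, also in none of the 8 (0.795%). A motif match describes these letters only. No 2 motifs overlapped, and TATAAA and the EGR site were added to the search after the array values were seen.

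None of the 10 genes passed limma's test of GHSROS against the empty vector. Every adjusted p was 1, as it was for the rest of the 18377 genes, of which 0 (0%) passed an adjusted p of 0.05. At an unadjusted p under 0.05 the count was 0 of the 10, beside 325 of all genes (1.77%). Of the 10, 5 were higher and 5 lower with GHSROS, where 50.9% of all genes were higher, and their median log2 fold change was 0.015 beside 0.002 over all genes. In size the differences had a median of 0.12, beside 0.06 over all genes. In the fit of all 6 arrays, each gene's 95% confidence interval excluded a 2-fold change in either direction. The widest reach was 0.511-fold for FOS and 1.57-fold for JUNB. The intervals of FOSL1, FOSL2, JUN, ATF3 and MYC also excluded a change of 1.5-fold. FOS only just cleared the 2-fold bound, and its log2 fold change was -0.49 without empty-vector array 3. Whether its interval excluded 2-fold in the alternative fits was not examined. These bounds rest on 3 arrays a group and hold for the deposited values, in which differences of dim probe sets can be compressed.

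**Figure D1:**
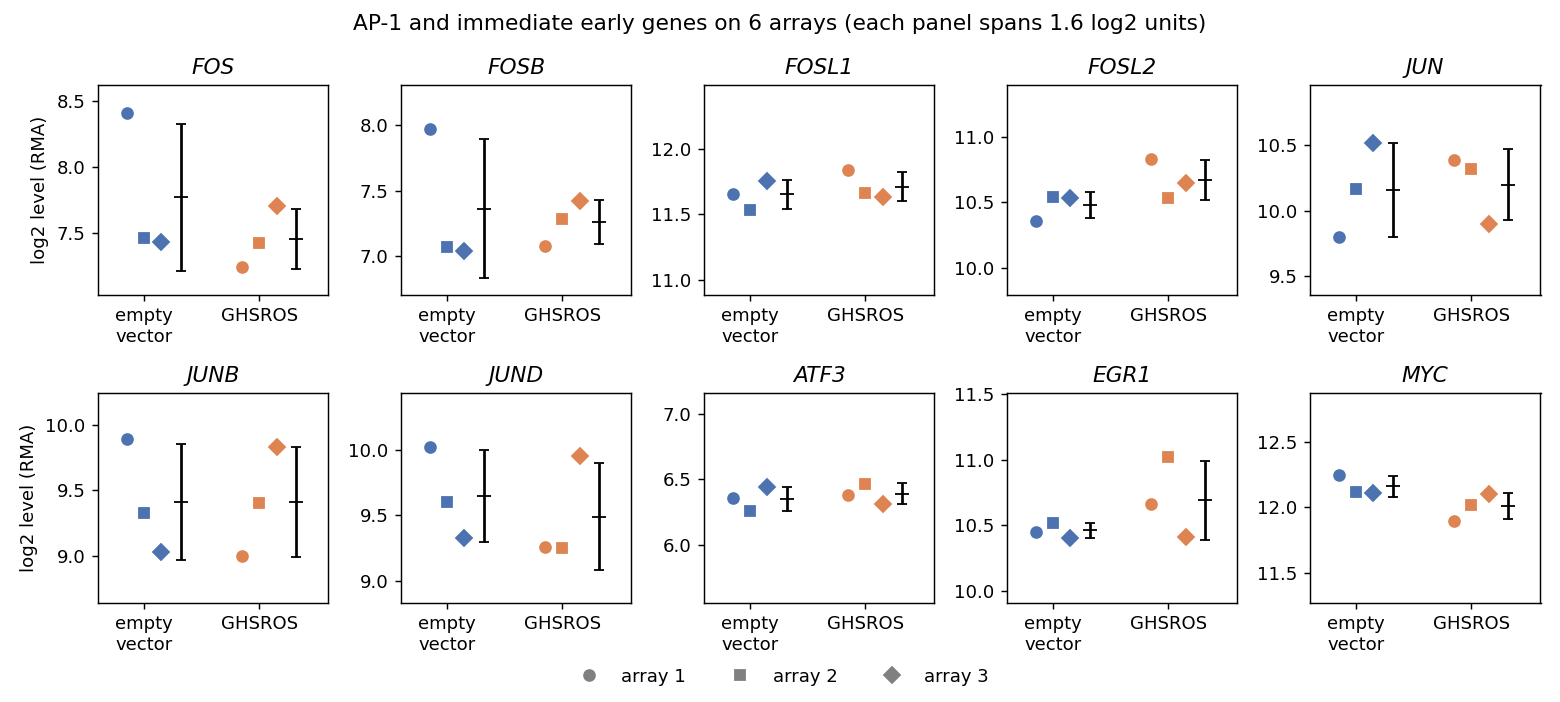
Log2 level of each of the 10 genes by vector, with the 3 arrays of a group as separate symbols and a black bar for the mean ± SD of 3 arrays. The groups overlap in every panel except MYC, where they are 0.007 apart, and in FOS and FOSB 1 empty-vector array stands well above the other 5 arrays.

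Among the FOS family, FOS, the founding partner of JUN, read 8.41, 7.46 and 7.43 on empty-vector arrays 1, 2 and 3 and 7.24, 7.42 and 7.70 on GHSROS arrays 1, 2 and 3. Empty-vector array 1 stood well above all others, and the groups overlapped. The means were 7.77 ± 0.56 (SD, n = 3) and 7.45 ± 0.23, a log2 fold change of -0.32 (SE 0.28), the largest of the 10. Without empty-vector array 1 it was 0.005.

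FOSB, a FOS relative that is also induced by serum, read 7.97, 7.07 and 7.04 with the empty vector and 7.08, 7.28 and 7.42 with GHSROS. Again empty-vector array 1 was highest, and the GHSROS arrays all lay above the remaining empty-vector arrays, array 1 only barely. The log2 fold change was -0.10 (SE 0.26) with all arrays and 0.21 without empty-vector array 1, so its direction rested on that array.

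FOSL1, which encodes FRA-1, read 11.65, 11.53 and 11.75 with the empty vector and 11.84, 11.66 and 11.63 with GHSROS. The groups overlapped and the whole range over 6 arrays was 0.31, less than the median range of 0.37 over all genes. Its log2 fold change was 0.06 (SE 0.10), with a 95% interval from -0.18 to 0.30. FOSL2, which encodes FRA-2, read 10.36, 10.54 and 10.53 with the empty vector and 10.83, 10.53 and 10.65 with GHSROS. GHSROS arrays 1 and 3 lay above all empty-vector arrays, while GHSROS array 2 fell among them, short of separation by 0.018. The log2 fold change was 0.19 (SE 0.11), with the smallest unadjusted p of the 10, 0.124 in limma. With 1 array left out it ran from 0.11, without GHSROS array 1, to 0.26.

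In the JUN family, JUN itself, which can form AP-1 alone, read 9.80, 10.17 and 10.52 with the empty vector and 10.39, 10.32 and 9.90 with GHSROS. The lowest values were those of empty-vector array 1 and GHSROS array 3, one from each group. The means were 10.16 ± 0.36 (SD, n = 3) and 10.20 ± 0.27, and the log2 fold change of 0.04 (SE 0.21) became -0.15 without empty-vector array 1.

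JUNB, a weaker activator that can oppose JUN, read 9.89, 9.33 and 9.03 with the empty vector and 9.00, 9.40 and 9.83 with GHSROS. The highest values now came from empty-vector array 1 and GHSROS array 3. Both group means were 9.41, with SDs of 0.44 and 0.42 (n = 3), and the log2 fold change was -0.004 (SE 0.28). It was 0.014 after quantile normalization and 0.23 without empty-vector array 1.

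JUND, the JUN gene expressed most constantly in resting cells, read 10.02, 9.60 and 9.33 with the empty vector and 9.26, 9.25 and 9.95 with GHSROS. Empty-vector array 1 and GHSROS array 3 were again highest, and the other GHSROS arrays were the lowest of all. The log2 fold change was -0.16 (SE 0.25). Without GHSROS array 3 it was -0.40, and without empty-vector array 1 it was 0.02.

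ATF3, a stress-induced factor that often represses its targets, was the flattest of the 10, at 6.36, 6.26 and 6.44 with the empty vector and 6.38, 6.46 and 6.31 with GHSROS. The groups overlapped throughout, and the range over 6 arrays was 0.21. On each array it was dimmer than the median probe set (6.559 to 6.648), so whether it was expressed cannot be told from these values. The log2 fold change was 0.03 (SE 0.09), with a 95% interval from -0.18 to 0.25.

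EGR1, a zinc finger factor whose promoter held the CArG boxes named above, read 10.45, 10.52 and 10.40 with the empty vector. With GHSROS it read 10.66, 11.02 and 10.41. The 3 empty-vector arrays were close together, GHSROS arrays 1 and 2 lay above them and GHSROS array 3 among them. The means were 10.46 ± 0.06 (SD, n = 3) and 10.69 ± 0.30, a log2 fold change of 0.23 (SE 0.16). Without GHSROS array 3 it was 0.38, with an unadjusted p of 0.0286 and an adjusted p of 1 in limma, and without GHSROS array 2 it was 0.07. In the fit without GHSROS array 3, 453 of the 18377 genes were at an unadjusted p under 0.05. EGR1 was thus higher with GHSROS on 2 of 3 arrays, by an amount set largely by array 2.

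MYC read 12.25, 12.12 and 12.11 with the empty vector and 11.90, 12.02 and 12.10 with GHSROS. It was the one gene of the 10 whose groups did not overlap, with GHSROS lower by a gap of 0.007, where 5.51% of all genes had groups apart in either direction and 2.44% with GHSROS lower. The means were 12.16 ± 0.08 (SD, n = 3) and 12.01 ± 0.10, and the log2 fold change of -0.15 (SE 0.09) had a 95% interval from -0.37 to 0.07 and an adjusted p of 1 in limma. Its direction was the same without each array in turn, at -0.19 to -0.10.

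**Figure D2:**
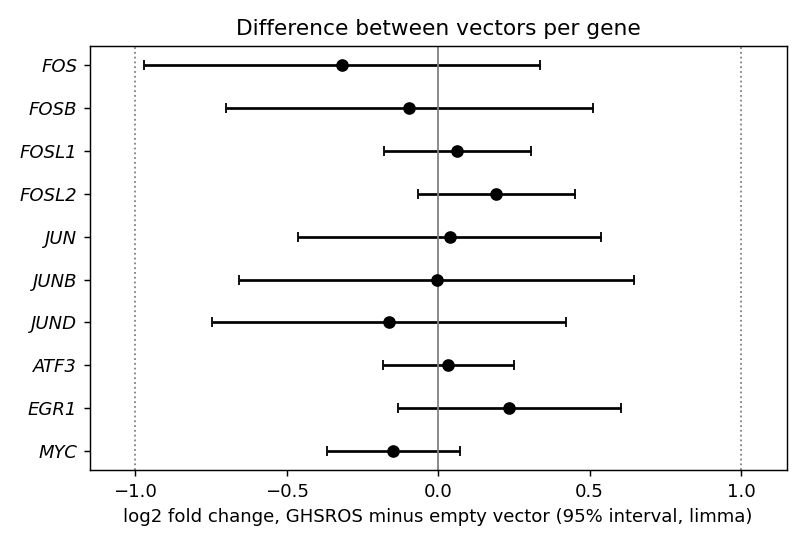
Log2 fold change of each of the 10 genes, GHSROS minus empty vector, as points with 95% confidence intervals from limma (3 arrays per group); dotted lines mark a 2-fold change. Every interval crosses 0 and stays within the dotted lines, from -0.97 at the low end of FOS to 0.65 at the high end of JUNB.

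Several of the 10 genes varied widely from array to array. Their median range over the 6 arrays was 0.67, beside 0.37 over all genes, and 3 of them, FOS (1.17), FOSB (0.93) and JUNB (0.89), had ranges above those of 90% of genes. ATF3 (0.21), FOSL1 (0.31) and MYC (0.34) had ranges below the median of all genes. For FOS and FOSB the spread lay mostly among empty-vector arrays (SDs of 0.56 and 0.53), against 0.23 and 0.17 among GHSROS arrays. JUNB (0.44 and 0.42), JUND (0.35 and 0.41) and JUN (0.36 and 0.27) were spread in both groups, empty-vector SD first. FOS, FOSB, JUNB and JUND were highest on empty-vector array 1 and GHSROS array 3, and JUN was lowest on both. Those 2 arrays also stood apart over all genes, at -0.218 and -0.214 on the first principal component against 0.030 to 0.164 for the other 4 arrays (root mean square log2 shift per gene, 64.4% of the variance). Both arrays above the other 4 was the pattern of 4 of the 10, beside 18.9% of all genes. Both below was the pattern of 1 of the 10, beside 20.3%. Whether these counts differ from the shares over all genes was not tested, so they only describe these genes.

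On the same arrays the mean of 26 mitosis genes was 10.00 and 10.02, against 10.81 to 11.05 on the other 4, and each of the 26 was lowest on both. The mean of 28 genes of ATF4 and the stress response, which holds none of the 10, was 10.13 and 10.17 against 9.12 to 9.52. Of the 28, 21 were highest on both arrays. FOS, FOSB, JUNB and JUND thus had their highest levels where stress genes were high and mitosis genes low, and JUN its lowest. ATF3, itself stress-induced, had a range of 0.21. It was dimmer than the median probe set on each array, so whether it shared the pattern cannot be told. Both lists were written with earlier results of these data known, so the contrast is a description only. Whether differences in growth or stress between the cultures had a part in these levels was not tested. Without both arrays, EGR1's log2 fold change was 0.37 (unadjusted p = 0.0408, adjusted p = 1 in limma), FOS stood at -0.12, FOSB at 0.13 and JUNB at 0.02. In that fit 432 of the 18377 genes were at an unadjusted p under 0.05.

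**Figure D3:**
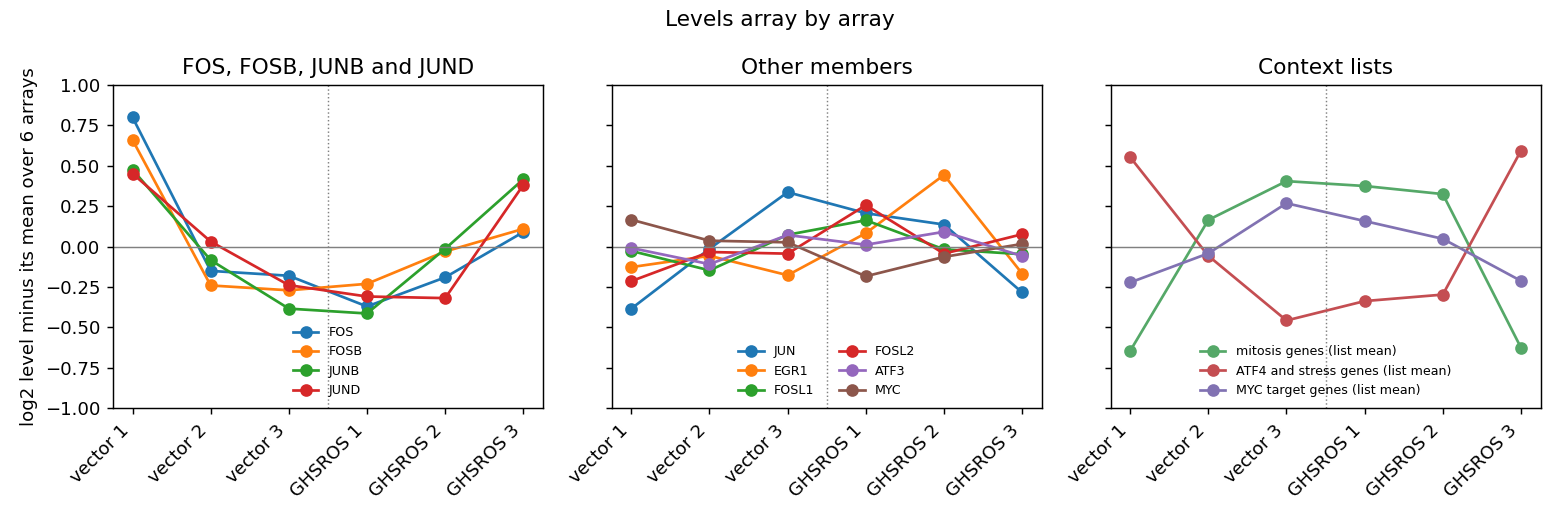
Log2 level minus its mean over the 6 arrays, for FOS, FOSB, JUNB and JUND (left), the other 6 genes (middle) and the means of 3 gene lists (right); lines only join the points of a gene or list, since arrays have no order. Vector 1 and GHSROS 3 are high for the left-hand genes and stress genes and low for JUN and mitosis genes (list means of 10.00 and 10.02 on those arrays).

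The likeness of 2 genes was taken as the largest difference at any array between their profiles after each gene's own mean was removed, so a small value means that the genes moved alike on all 6 arrays. FOS and FOSB lay 0.16 apart, although each ranged over 0.93 or more. JUNB and JUND lay 0.31 apart, and across the families FOSB lay 0.29 from JUND and 0.31 from JUNB. FOS and JUN, at 1.19, were far from each other. Among 9189 genes at or above the median level, the nearest to FOS were RGCC (0.17), DYNC2I1 (0.18) and SNORA67 (0.185). Nearest to FOSB were FLRT2 (0.14), ZFP36 (0.155) and PHYH (0.157). ZFP36, which encodes an RNA-decay protein and is itself an immediate early gene, read 8.81 on empty-vector array 1 and 8.14 to 8.26 on the others. JUNB had closer neighbours, B4GAT1 (0.058), COA5 (0.067) and STING1 (0.068). These profiles share the same 6 arrays, and the likeness is a description only.

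Other immediate early genes were measured for 31 of 34 listed, with 19 higher and 12 lower with GHSROS, and 0 passed at an adjusted or an unadjusted p of 0.05. Their median log2 fold change was 0.06, beside 0.002 over all genes, and -0.01 without GHSROS array 3. NR4A1, an orphan nuclear receptor gene, read 7.27, 7.30 and 7.33 with the empty vector and 7.42, 7.51 and 7.49 with GHSROS. Its groups did not overlap, as for 3.06% of all genes with GHSROS higher, and its log2 fold change was 0.17 (SE 0.08). The MAP kinase phosphatase gene DUSP1 stood at 0.19 (SE 0.17), and IER3 at 0.09 (SE 0.16). EGR3, a close relative of EGR1, was at 0.01 (SE 0.09). At 5.95 to 6.14 it was dimmer than the median probe set of each array, so whether it was expressed cannot be told. KLF6 was lower by -0.06 (SE 0.08), with the groups 0.006 apart, as 2.44% of all genes had groups apart with GHSROS lower. Across cultures the list split: 13 of 31, IER3, KLF10 and ZFP36 among them, were highest on empty-vector array 1 and GHSROS array 3. Another 7, DUSP1 and the matricellular genes CCN1 and CCN2 among them, were lowest on both. CCN2, at 11.70 and 11.66 on those arrays and 12.39 to 12.73 on the others, shared the direction of JUN.

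The other bZIP genes, some of whose proteins can pair with JUN or FOS proteins, were measured for 20 of 23 listed. Of these, 8 were higher and 12 lower, with 0 past the adjusted test. BATF, known from lymphocytes, was the 1 gene at an unadjusted p under 0.05 (0.794% of all genes with GHSROS lower). It read 7.54, 7.22 and 7.34 with the empty vector and 6.90, 7.04 and 7.07 with GHSROS, at a log2 fold change of -0.36 (SE 0.11). Its groups did not overlap, as for 2.44% of all genes with GHSROS lower. JDP2, a JUN-dimerizing repressor, was at -0.18 (SE 0.24), BATF3 at 0.11 (SE 0.18), ATF2 at -0.002 (SE 0.09) and the small MAF genes MAFF and MAFG at -0.12 (SE 0.10) and 0.007 (SE 0.12). CREB5 ranged over 1.34 across arrays, low on empty-vector array 1 (7.07) and GHSROS array 3 (7.01) and at 7.90 to 8.34 elsewhere. Of this list 4 genes are also stress-response genes of the ATF4 list. Of the 16 others, 6 were highest and 4 lowest on both of those arrays.

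Signalling genes upstream of AP-1 gave values for 24 of 33 listed, 13 higher and 11 lower with 0 past the adjusted or unadjusted test. SRF, the factor that binds CArG boxes, was at 0.01 (SE 0.13), and its partners ELK1 and ELK3 at 0.11 (SE 0.09) and 0.04 (SE 0.11). MAPK8, which encodes the JUN kinase JNK1, read 10.10, 10.57 and 10.83 with the empty vector and 10.78, 10.56 and 9.74 with GHSROS. It was lowest on the arrays where JUN was lowest, as were 9 of the 24 genes in all, while 6 were highest on both. FBXW7, of the ligase that marks JUN and MYC for degradation, was at 0.05 (SE 0.13). The other 9 of the list were not analysed here.

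AP-1 target genes, of which 27 of 30 were measured, were 15 higher and 12 lower, with 0 past the adjusted test and a median log2 fold change of 0.025, which was -0.021 without empty-vector array 3. At an unadjusted p under 0.05 there were 3, all higher (0.974% of all genes with GHSROS higher): PTGS2, the inducible cyclooxygenase gene, at 0.84 (SE 0.24), IL1B at 0.42 and SPHK1 at 0.28, the last pair named after their values were seen. In these 3 the GHSROS arrays all lay above the empty-vector arrays, as for 3.06% of all genes. In 3 others, VIM (-0.17), MMP2 (-0.11) and HMOX1 (-0.08), they all lay below, as for 2.44% of all genes. MMP2 was likewise named after its values were seen. PTGS2 read 8.42, 8.21 and 7.82 with the empty vector and 9.21, 8.49 and 9.24 with GHSROS. The collagenase gene MMP1, a classic AP-1 target, differed by -0.10 (SE 0.09), and the urokinase receptor gene PLAUR by -0.04 (SE 0.11). CXCL8 was at -0.07 (SE 0.16) and CCND1 at -0.05 (SE 0.08). IL11 was at 0.49 (SE 0.37) and ranged over 1.65. It was lowest on empty-vector array 1 (8.51) and GHSROS array 3 (9.29), which held for 3 of the 27, while 8 were highest on both.

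MYC's network partners were measured for 18 of 19 listed, 7 higher and 11 lower, with 0 past the adjusted or unadjusted test. MAX, which MYC needs to bind DNA, was at 0.009 (SE 0.08). The antagonists MXD1, MXI1 and MNT were at 0.10 (SE 0.10), -0.13 (SE 0.24) and -0.07 (SE 0.15). MXI1 and MNT were both highest on empty-vector array 1 and GHSROS array 3. MYC target genes, 28 of 32 measured, were 15 higher and 13 lower; none passed (0 at an adjusted or unadjusted p of 0.05), with a median log2 fold change of 0.005, which was -0.096 without empty-vector array 1 and 0.11 without empty-vector array 3. ODC1, the polyamine synthesis gene, was at 0.01 (SE 0.28), the nucleolin gene NCL at 0.03 (SE 0.12) and the transferrin receptor gene TFRC at 0.10 (SE 0.35). Of the 28, 18 were lowest on both of those arrays, beside 20.3% of all genes. TFRC read 11.00 and 11.02 there and 11.77 to 12.02 elsewhere. MYC itself was at 12.25 and 12.10 on those arrays, highest on the first and within the range of the others on the second. Of the EGR1 target genes, 14 of 16 were measured, 10 higher and 4 lower, and 0 passed at an adjusted or unadjusted p of 0.05. NAB1 and NAB2, which encode corepressors of EGR1, were at -0.02 (SE 0.09) and 0.05 (SE 0.11).

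**Figure D4:**
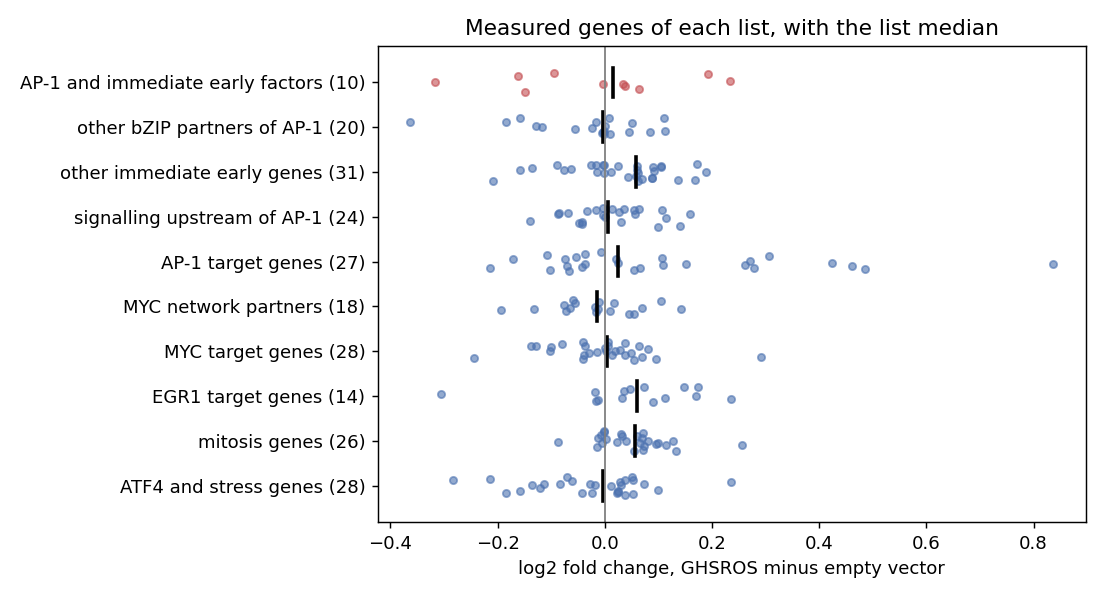
Log2 fold change, GHSROS minus empty vector, of each measured gene (points) in the AP-1 and immediate early list (red) and 9 other lists (blue), with the list median as a black bar and the number measured in brackets. The medians lie between -0.015 for MYC network partners and 0.06 for EGR1 target genes, and PTGS2 at 0.84 is the outermost point.

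Of 8 mesenchymal breast markers, 7, VIM and CD44 among them, lay above the array median on every array. Of 8 luminal breast markers the list was split, with 3, ESR1, PGR and CDH1, below the median on every array and 4 above it. Those 4 were KRT19, a keratin that averaged 11.83, GATA3 (7.30 to 7.52), FOXA1 (6.68 to 7.15) and EPCAM (6.90 to 7.67). FOXA1 and KRT19 differed by 0.35 and -0.28 at unadjusted p-values of 0.00478 and 0.0468 in limma, and at adjusted p above the threshold. Markers of blood cells were below it on every array in 5 of 6, the sixth being CD68, and list means ran from 6.12 to 6.23 with the empty vector and 6.05 to 6.21 with GHSROS. Of the endothelial markers 2 of 5 lay above the median on every array, with list means of 5.92 to 6.40 and 6.08 to 6.57. One of them, KDR, a VEGF receptor gene, was highest on the outlying arrays, at 8.81 (empty-vector array 1) and 9.10 (GHSROS array 3), against 7.20 to 7.77 elsewhere. Of the neural markers 3 of 4 lay above the median on every array, with list means of 6.40 to 6.64 and 6.47 to 6.61. Those 3, SOX10 (6.86 to 7.09), GFAP (6.63 to 7.06) and NEFL (6.72 to 7.04), were near the array medians (6.559 to 6.648). They were dimmer than the median gene (7.537), so whether they were expressed cannot be told. A level above the array median does not by itself show expression. No marker passed the adjusted test, and their part in the results above was not tested. The annotation used here names no probe set for GHSROS, so the insert itself gave no check of the labels.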

How the data were processed

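RNA from 6 cultures was measured on 1-colour arrays, with group and replicate number read from each sample title. Values in the deposited table are on a log2 scale, 1 per probe set, and the authors made them with RMA according to the submitters' processing notes, which name no version, step or filter. Normalization of this kind removes a shift shared by most genes. Of 28869 probe sets, 19310 were paired with 1 symbol, 1752 with several and 7807 with none in the platform annotation. The brightest per gene by its mean over 6 arrays was kept, giving 18377 genes, and 0 columns were left out. Arrays give no read depth; precision is limited by their number.

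Both vectors were compared in limma 3.58.1 under R 4.3.3, by lmFit and eBayes with a term for the vector alone. Tests were two-sided, with Benjamini-Hochberg adjustment over all genes and a threshold of 0.05. The procedure was also run on simulated data with noise drawn separately for each gene and array. Those data lacked the pattern shared by the outlying arrays, and the changes added were larger than any seen among the 10 genes. How it performs on data with that pattern was not tested. Cultures are called biological replicates by the submitters; if they were not grown apart, the tests reflect just the scatter of these samples, which may be technical. The 10 genes and all lists were chosen with earlier results of these data known. Named beside the 10 were genes written down in advance for each list, the genes of smallest p per direction, and the 3 nearest in profile to each of the 3 most variable members. Alternatives were a block for the replicate number, quantile normalization, centring on array medians, 2 filters on level, the mean of probe sets, an intensity trend with robust prior, array weights, each array left out, and both outlying arrays left out. Promoters came from RefSeq (GRCh38.p14), which matched 8 of the 10 genes.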

Additional observations from a re-analysis of the deposited data

How the results depend on the processing

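Across the 15 alternatives 0 of the 18377 genes and 0 of the 10 factors passed the adjusted test, and the smallest adjusted p of a factor was 0.923. Genes at an unadjusted p under 0.05 numbered 325 of 18377. Filtering on level left 76 of the 9189 that reached the median, and 187 with the cut at the 25th percentile. The fall to 76 was steeper than the fall in genes tested, and how far dim genes account for it was not tested. Array weights gave 877, and leaving 1 array out gave 191 to 480. Of the factors, 0 to 1 were at an unadjusted p under 0.05 with 1 array left out, and 1 without both outlying arrays, EGR1 each time. In the fits where EGR1 was counted, so were 453 of the 18377 genes without GHSROS array 3 and 432 without both outlying arrays. With 1 array left out the log2 fold change ranged from -0.49 to 0.005 for FOS, -0.26 to 0.21 for FOSB, -0.002 to 0.12 for FOSL1, -0.15 to 0.22 for JUN, -0.22 to 0.23 for JUNB, -0.40 to 0.024 for JUND and -0.013 to 0.077 for ATF3. FOSL2, EGR1 and MYC kept their direction in all 15. Other turned directions were JUNB's after quantile normalization (0.014) and, without both outlying arrays, FOSB's (0.13) and JUNB's (0.02); the cause was not tested. With the replicate number as a block, 223 genes were at an unadjusted p under 0.05 and 0 factors passed. Deviations of same-numbered arrays correlated at -0.714, 0.504 and -0.669 across genes; pairs 1 and 3 each hold 1 of the outlying arrays, and whether the numbers pair the cultures cannot be told from these values. With 1 array left out, list medians ran from -0.262 to 0.36 for mitosis genes, -0.27 to 0.168 for stress genes, -0.079 to 0.018 for other bZIP genes and -0.006 to 0.099 for EGR1 targets. Filtering at the median level removed FOSB and ATF3.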
